A study of Rattus norvegicus with 14 samples.

Results

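The genes described here carry pyruvate into the mitochondrion, oxidize it, run the citric acid cycle and move reducing equivalents across the inner membrane. They were chosen as a list of 33 symbols, each matched to probe sets annotated with that single symbol, and the probe set with the highest mean stood for its gene. Of the 33 symbols, 30 had such a probe set, among 14217 genes on the array that did. Dlat, Fh and Fh1 did not and were not analysed here; Fh and Fh1 are alternative symbols of 1 gene. All 30 measured genes passed the filter on low signals described below, as did 11065 genes in all.

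The samples were 14 whole soleus muscles from 12 male Sprague Dawley rats, each on its own Affymetrix array. Tenotomy cuts the tendon so that the muscle is unloaded, and by the labels this immobilized the right soleus for 1, 2, 3, 4, 6, 16 or 22 weeks. The 4 control muscles, without tenotomy, were left soleus muscles. The short-term group had 6 muscles (2 at 1 week, 2 at 2 weeks, 1 at 3 weeks and 1 at 4 weeks), and the long-term group had 4 (2 at 6 weeks, 1 at 16 weeks and 1 at 22 weeks). Rats 61 and 62 each gave a control muscle and a muscle tenotomized for 6 weeks. No rat gave both a control and a short-term muscle, so tenotomy of 1 to 4 weeks cannot be told apart from a difference between cohorts of rats, or from side. No age is given in the labels.

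Pyruvate, the end product of glycolysis, enters the mitochondrion through the pyruvate carrier and is turned into acetyl-CoA by the pyruvate dehydrogenase complex. The complex is switched off by kinases and on by phosphatases. The citric acid cycle oxidizes the acetyl group and hands electrons to NADH, while the malate-aspartate shuttle brings the electrons of cytosolic NADH inside. Soleus is a slow, postural muscle that works mainly by oxidative metabolism.

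Promoters of 26 measured members were found in the RefSeq table for the GRCr8 build, each running from 250 bases before the gene's start to 50 bases after it. Pdp1, Pdp2, Pc and Idh3a had no entry. They were searched on both strands for a site of nuclear respiratory factor 1 (GCGCA, any base, then GCGC) and a binding motif of estrogen related receptors (a T, any base, then AAGGTCA), since both factors are known regulators of mitochondrial genes. The first was found in 2 of 26 member promoters (7.69%), those of Dld and Sucla2, and in 1424 of 33469 promoters of the table (4.25%). The second was found in 0 of 26, and in 401 of the 33469 (1.2%). The 2 promoters with a match are shown, with the matched bases in capitals: the first lies at chr6:53652298-53652597 on the minus strand and its match starts 7 bases before the gene's start, and the second lies at chr15:55161644-55161943 on the plus strand with a match, read on the opposite strand, 39 bases before the start.
Dld: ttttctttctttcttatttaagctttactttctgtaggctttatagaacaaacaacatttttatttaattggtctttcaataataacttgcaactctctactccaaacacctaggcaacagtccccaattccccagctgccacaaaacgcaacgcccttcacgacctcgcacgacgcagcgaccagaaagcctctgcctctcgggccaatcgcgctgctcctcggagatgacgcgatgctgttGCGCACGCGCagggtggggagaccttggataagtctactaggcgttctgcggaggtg
Sucla2: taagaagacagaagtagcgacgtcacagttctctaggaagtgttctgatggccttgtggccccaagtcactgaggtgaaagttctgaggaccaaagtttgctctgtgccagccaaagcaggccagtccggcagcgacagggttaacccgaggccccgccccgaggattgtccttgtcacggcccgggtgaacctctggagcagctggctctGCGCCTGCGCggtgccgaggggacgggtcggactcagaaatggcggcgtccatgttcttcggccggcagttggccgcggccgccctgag
A match is a description of the letters only and says nothing of binding. All 26 members with a promoter in the search were among the 28 that fell in short-term muscle. Matches therefore could not be compared between members that fell and members that did not.

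Signals are MAS5 intensities scaled to a common array median. A change is given on the log2 scale relative to the median gene of the same comparison, because the median gene itself shifted by -0.34 between control and short-term muscle and by 0.02 between control and long-term muscle. The adjusted p of limma refers to the scaled change before that shift was taken off, with a threshold of 0.05 after Benjamini-Hochberg adjustment over all 11065 genes. By the labels, the muscles within a group came from separate rats.

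Most genes of the pathway fell in short-term muscle. Of 30 members, 28 fell, 0 rose and 2 did not pass the test (Pdp2 and Pc), and the median change was -0.70, with a range of -1.59 to -0.18. Over all genes tested, 39.6% were called lower and 12.3% higher, and the median of all genes is 0 by construction. On the scaled signal, every short-term muscle lay below every control in 26 of the 30 members, against 29.2% of all genes. Of these 26, Mdh1, Slc25a12, Idh2 and Nnt overlapped once values were taken relative to the median gene of each array. The 95% interval of the relative change lay below 0 for 25 members. It included 0 for Pdp2 and Pc, and for Mdh1, Idh1 and Idh2, which had passed the test on the scaled signal. Under each of the 5 scalings tried, 23 members were called lower.

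**Figure D1:**
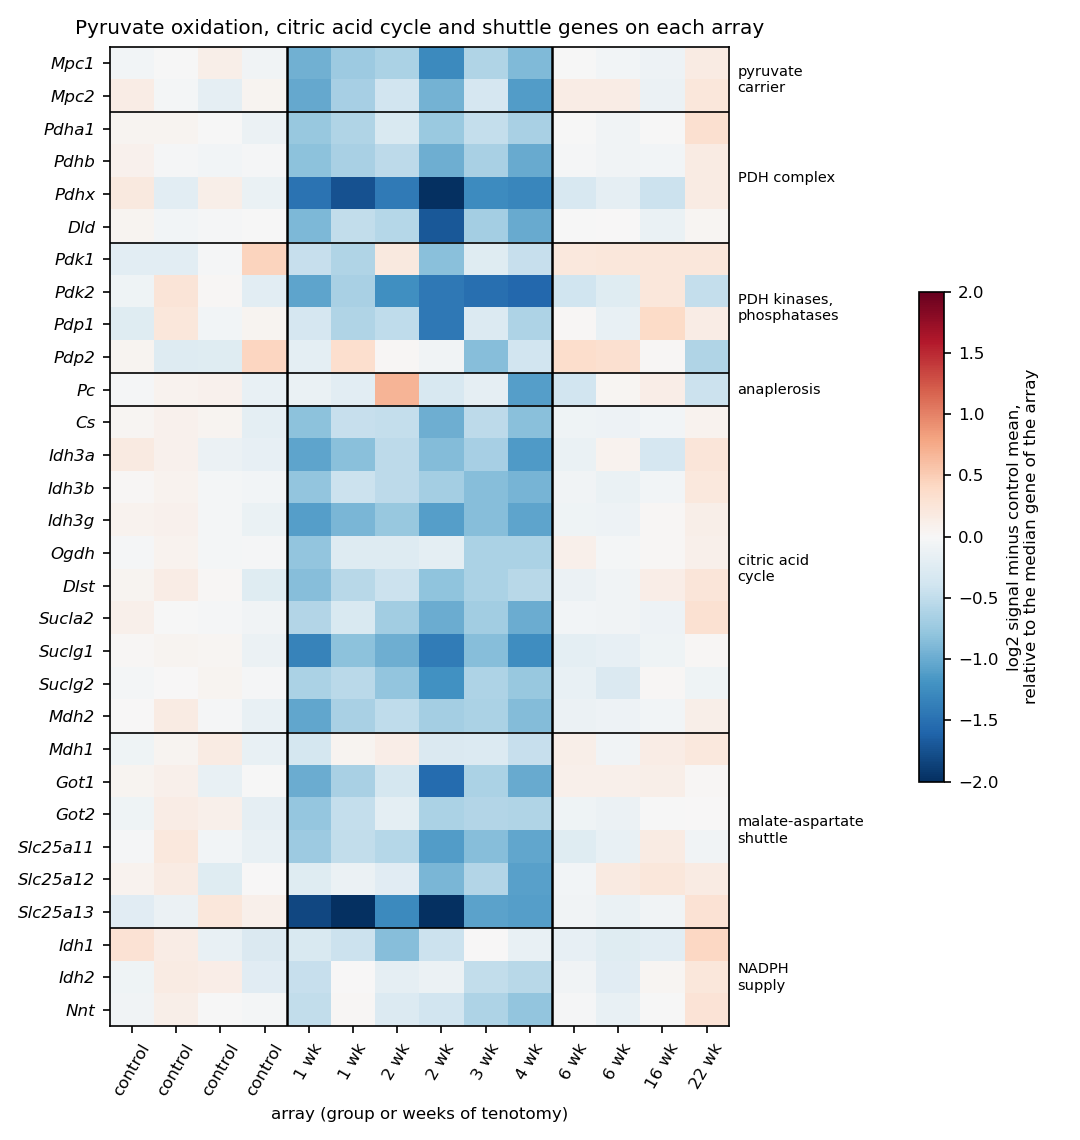
Each cell is the log2 signal of 1 member on 1 array, minus the control mean and relative to the median gene of that array; blue is lower and red higher, arrays run from control to 22 weeks, and lines separate the role groups. The 6 columns from 1 to 4 weeks are blue for nearly all genes, deepest for Pdhx and Slc25a13, while the columns from 6 to 22 weeks are pale like the controls.

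The median over the members was below the controls on each short-term array. It was -0.79 and -0.55 on the 1-week arrays, -0.51 and -0.93 on the 2-week arrays, -0.63 at 3 weeks and -0.91 at 4 weeks. The controls lay between -0.09 and 0.07. The spread of the short-term arrays (mean -0.72 ± 0.18, SD, n = 6) left a clear gap to the controls (-0.01 ± 0.07, SD, n = 4).

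Markers of other cell types were higher in the same muscles. Of 13 macrophage markers, 11 rose (median change 1.89), and their summed signal ran from 1071 to 2114 in controls and from 2827 to 6704 in short-term muscle. Of 10 fibroblast markers, 9 rose (median 1.75), with sums of 10450 to 16920 in controls and 27410 to 49360 in short-term muscle. Over all genes tested, 39.6% were called lower and 12.3% higher. Beside that, 2 of 10 genes of all muscle fibres fell (median change 0.05), and 4 of 10 slow-fibre genes fell (median 0.04). Their summed signals, which keep the shift of the median gene, ran lower in short-term muscle, with overlap. For all fibres they were 62520 to 77660 in controls and 48920 to 71980 in short-term muscle. For slow fibres they were 73080 to 93160 and 53100 to 79160. Set against the fibre genes on the same array, the members' median was lower by 0.47 to 1.12 in the short-term muscles, on the log2 scale, and differed from them by -0.13 to 0.10 in the controls. Endothelial genes had a median change of 0.19 (1 of 7 fell), adipocyte genes of 1.07 (1 of 5 rose and 1 fell) and red blood cell genes of 0.27 (0 of 3 changed). Cdh5, Lep, Retn and Hba1 were not above the filter on any array. The part of other cells in the members' change was not tested, and fewer fibres and less RNA per fibre cannot be told apart in whole muscle.

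**Figure D2:**
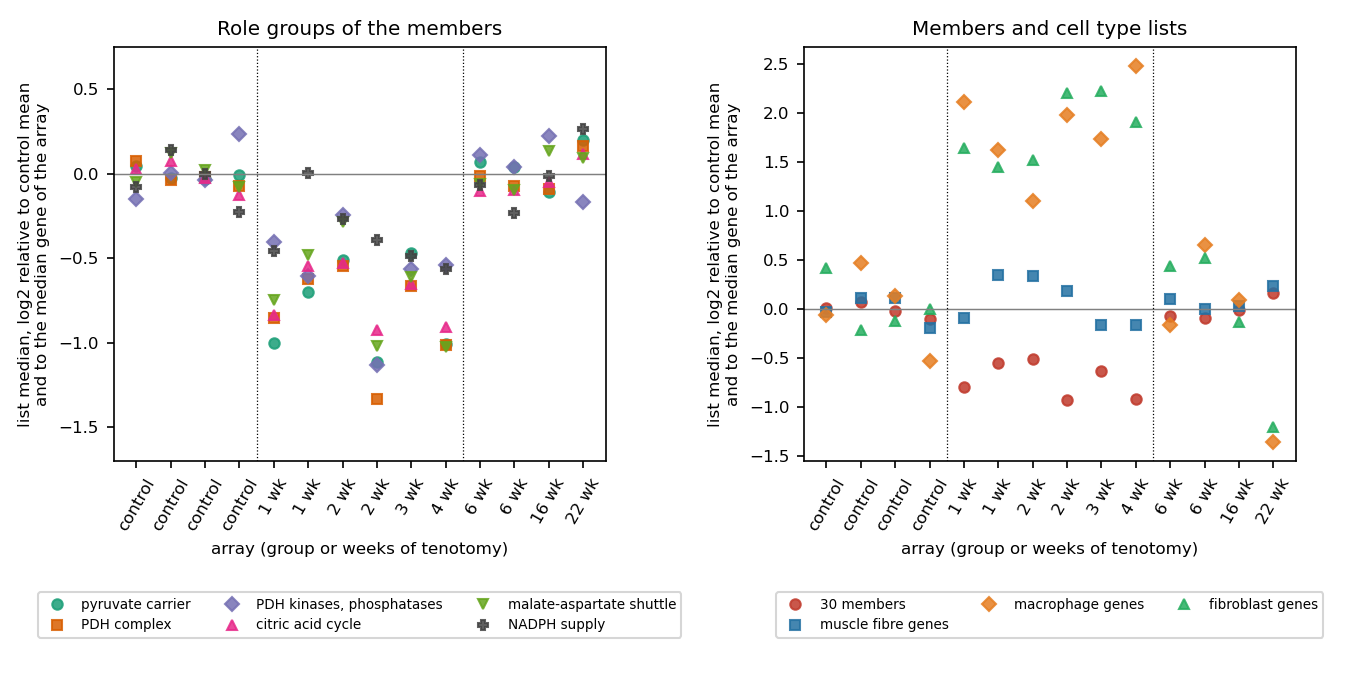
Medians of gene lists on each array, as log2 relative to the control mean and to the median gene of the array: on the left the role groups with more than 1 measured gene, on the right all 30 members beside muscle fibre, macrophage and fibroblast genes. On the 1- to 4-week arrays the members lie at -0.93 to -0.51 while the fibre genes lie at -0.16 to 0.35 and the macrophage genes at 1.10 to 2.49.

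Some array quality measures differed between short-term and control muscle before adjustment, and none passed after it. With 6 against 4 arrays the smallest exact permutation p is 0.0048, so over 14 tests 1 measure alone could not pass. The 3' to 5' signal ratio of Gapdh averaged 1.34 in short-term and 2.08 in control muscle (exact permutation test, two-sided, p = 0.014, adjusted p = 0.1 over 14 tests). That of hexokinase averaged 16.85 against 8.97 (exact permutation p = 0.43, adjusted p = 0.86). Its short-term range of 3.893 to 45.96 enclosed the control range of 5.995 to 11.72, so it showed no clear direction. The gap between each array's 75th percentile and its median was 2.06 against 2.32 on the log2 scale (exact permutation p = 0.0095, adjusted p = 0.1), so bright probe sets lay closer to the median on the short-term arrays. The poly-A spike signal was 250 against 98.8 (exact permutation p = 0.043, adjusted p = 0.19). Its range of 128.4 to 424.4 in short-term muscle did not overlap that of 92.13 to 105.8 in controls. The part of these measures in the members' change was not tested. Quantile normalization, which makes the gap between the 75th percentile and the median equal on all arrays, gave a smaller median member change. It was -0.49 with 24 members called lower, against -0.70 and 28 under the common median.

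Both subunits of the pyruvate carrier fell. Mpc1 gave signals of 6227, 5639, 6712 and 5724 in the 4 controls and of 1947 to 3473 with a median of 2706 in the 6 short-term muscles. No short-term muscle came near a control. The change was -0.84 (SE 0.15, adjusted p from limma 2.6e-05), a level of 0.558 times control. Mpc2, its partner, changed by -0.74 (SE 0.18, limma adjusted p = 0.00016), with short-term signals of 1307 to 2535 against 3361 to 4366 in controls.

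All 4 measured parts of the pyruvate dehydrogenase complex fell, with a median of -0.82. Pdhx, the protein that anchors dihydrolipoamide dehydrogenase to the complex, fell most. Its control signals were 1802, 1198, 1641 and 1335, and its short-term signals ran from 283.5 to 534.3 with a median of 423.5. The groups were far apart. The change was -1.53 (SE 0.19, limma adjusted p = 5.5e-06), which is 0.347 times control. Dld, the dihydrolipoamide dehydrogenase shared with the oxoglutarate complex, fell by 0.88, Pdhb by 0.76 and Pdha1 by 0.58 on the log2 scale. Pdha1 and Pdhb form the decarboxylating core enzyme. A dimmer probe set of Pdha1 gave a larger change, -1.35 (adjusted p = 0.015 in a limma fit of all probe sets).

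Among the regulators of the complex, 3 of 4 fell. Pdk2, a kinase that inactivates the complex, gave 2449, 2753, 2547 and 2102 in the controls, and 629 to 1241 with a median of 769.9 in short-term muscle. Every short-term muscle lay below every control. The change was -1.23 (SE 0.18, limma adjusted p = 1.2e-05). A second, dimmer probe set of Pdk2 moved the other way (1.65, adjusted p = 0.3 in a limma fit of all probe sets), and the mean of both reversed the direction (0.16, adjusted p = 0.82), so the fall of Pdk2 rests on its brighter probe set.

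Pdk1, another kinase, changed by -0.39 (limma adjusted p = 0.0035). Its short-term signals of 495.6 to 987.2 overlapped the controls of 910.5 to 1520. It lost its call under quantile normalization (-0.18, adjusted p = 0.23) and trimmed mean scaling (adjusted p = 0.11), and was -0.25 without control replicate 4. A dimmer probe set of Pdk1 gave a larger change, -0.92 (adjusted p = 0.00032 in a limma fit of all probe sets). Pdp1, a phosphatase that reactivates the complex, fell by 0.62 with no overlap. Pdp2, the other phosphatase, gave 79.35, 56.17, 61.51 and 95.21 in the controls and 34.32 to 71.8 (median 51.31) in short-term muscle. These ranges overlapped, and the change was -0.18 (SE 0.23, limma adjusted p = 0.068). Pdp2 passed the threshold without short-term replicate 2 (adjusted p = 0.029), without control replicate 2 (0.047) and with array weights (0.042). Its other probe set, with a mean signal of 60.71 against 61.85, had the other sign (0.30, adjusted p = 0.99 in a limma fit of all probe sets).

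Pc, the pyruvate carboxylase that refills the cycle with oxaloacetate, did not pass. The controls gave 112.7, 106.5, 117.3 and 96.5. Short-term muscles ran from 38.67 to 131 with a median of 76.11, and the highest of them, a 2-week muscle, lay above all controls. The change was -0.20 (SE 0.25, limma adjusted p = 0.074), and without that muscle (short-term replicate 3) it was -0.39 (adjusted p = 0.014).

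All 10 measured genes of the citric acid cycle fell, with a median of -0.71 and no overlap between the groups in any of them. Suclg1, the alpha subunit that both forms of succinyl-CoA ligase share, fell most. Its controls gave 3349, 3007, 3248 and 2859, and the short-term muscles 916.5 to 1500 with a median of 1109. The highest short-term signal was thus well under the lowest control. The change was -1.10 (SE 0.15, limma adjusted p = 7.1e-06), or 0.468 times control. The beta subunits, Suclg2 of the GTP form and Sucla2 of the ATP form, fell by 0.75 and 0.70 on the log2 scale.

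The 3 subunits of the NAD-dependent isocitrate dehydrogenase fell together. Idh3g changed by -0.96, Idh3a by -0.84 and Idh3b by -0.69. Cs, the citrate synthase that opens the cycle, fell by 0.67, and the 4 probe sets of Cs gave changes of -0.90 to -0.67. Mdh2, the mitochondrial malate dehydrogenase that closes the cycle, fell by 0.72. Dlst and Ogdh, parts of the oxoglutarate dehydrogenase complex, fell by 0.63 and 0.45. Ogdh had the smallest change of the 10, with short-term signals of 2050 to 3011 against 4356 to 4653 in controls.

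All 6 genes of the malate-aspartate shuttle were called lower, but their sizes differed most. Slc25a13, the aspartate-glutamate carrier citrin, gave 330.1, 310.9, 431.9 and 386.6 in the controls and 60.06 to 149.5 with a median of 97.8 in short-term muscle. The highest short-term muscle lay far below the lowest control. The change was -1.59 (SE 0.24, limma adjusted p = 2e-05), a level of 0.333 times control, and its other probe set gave -1.43. Slc25a12, the carrier aralar, which does the same exchange, changed by -0.52 (limma adjusted p = 0.0013; 0.085 under quantile normalization). Got1, the cytosolic aspartate aminotransferase, fell by 0.85, Slc25a11, the malate-oxoglutarate carrier, by 0.79, and Got2, the mitochondrial aminotransferase, by 0.53.

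Mdh1, the cytosolic malate dehydrogenase, had the smallest change of the shuttle genes. Its controls gave 6138, 5931, 7032 and 5465 and its short-term muscles 3407 to 5093 with a median of 4151. The groups did not overlap on this scale, yet relative to the median gene the change was -0.19 (SE 0.15, limma adjusted p = 0.0063), with an interval of -0.50 to 0.12. It was not called under 75th percentile, quantile or trimmed mean scaling (highest adjusted p 0.34). A second probe set of Mdh1, with a mean signal of 1319 against 5368, fell by 1.27 (adjusted p = 0.0019 in a limma fit of all probe sets).

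The 3 NADPH genes were all called lower on the scaled signal. Relative to the median gene, their median change was -0.35. Nnt, the transhydrogenase of the inner membrane, gave 6732, 6769, 6806 and 6425 in the controls and 2965 to 5413 with a median of 3887 in short-term muscle. The ranges did not overlap on this scale. Its change was -0.41 (SE 0.16, limma adjusted p = 0.001). Idh1 and Idh2, the cytosolic and mitochondrial NADP-dependent isocitrate dehydrogenases, changed by -0.35 and -0.29 (limma adjusted p 0.011 and 0.0028). Idh1 was not called under 75th percentile, quantile or trimmed mean scaling or without control replicate 1 (adjusted p = 0.052), and Idh2 not under trimmed mean scaling (0.14).

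**Figure D3:**
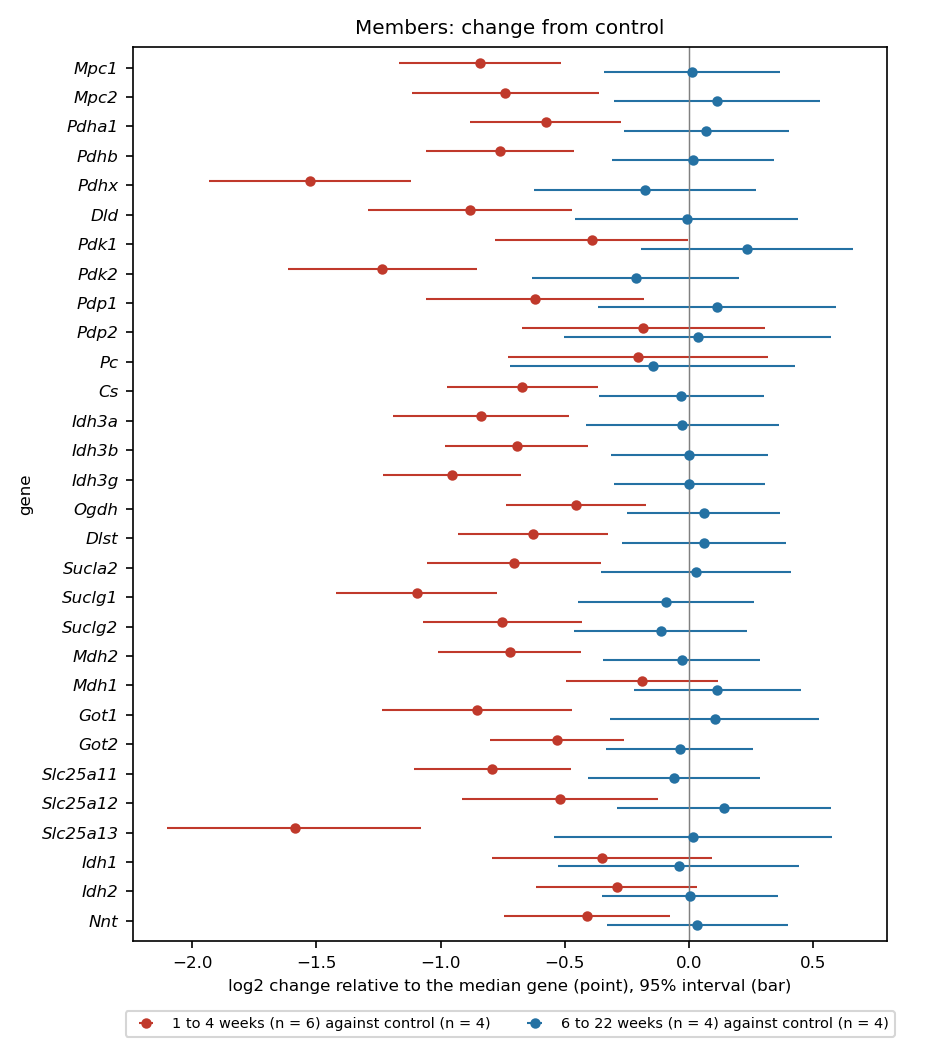
Change of each member against the 4 controls, on the log2 scale relative to the median gene, with points for the estimate and bars for the 95% interval; red is 1 to 4 weeks (n = 6) and blue 6 to 22 weeks (n = 4). Red points lie between -1.59 and -0.18 and blue points between -0.22 and 0.23, and every blue bar crosses 0.

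Enzymes that do like work in different compartments, or as partners, were set against each other within each array. These 8 pairs were chosen after the values were seen. Mdh1 was less reduced than Mdh2, by 0.53 on the log2 scale (exact permutation test, two-sided, p = 0.0048, the smallest that 6 against 4 arrays allow; adjusted p = 0.038 over 8 pairs), and the arrays did not overlap. That difference was -0.01 when all probe sets of a gene were averaged, so it holds for the brightest probe sets alone. Without 1 array at a time it was 0.50 to 0.60, with adjusted exact permutation p of 0.063 or 0.095, in each case from the smallest exact p that the remaining arrays allow.

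No other pair passed after adjustment. The difference was 1.07 for Slc25a12 minus Slc25a13 (exact permutation p = 0.043, adjusted 0.11) and 0.84 for Pdk1 minus Pdk2 (exact permutation p = 0.033, adjusted 0.11). The value for Pdk1 and Pdk2 is that of their brightest probe sets, and the dimmer probe sets of both gave other changes (-0.92 and 1.65). In single muscles, Slc25a13 was at -1.83 and -2.26 at 1 week and at -1.27 and -2.06 at 2 weeks. It was at -1.07 and -1.10 at 3 and 4 weeks. Slc25a12 was at -0.25 and -0.12 at 1 week and at -0.22 and -0.91 at 2 weeks. It was at -0.59 and -1.08 at 3 and 4 weeks. A difference between the 2 genes in their course over time was not tested. Got1 minus Got2 gave -0.32 and Pdp1 minus Pdp2 -0.44 (adjusted exact permutation p 0.2 and 0.46). Mpc1 minus Mpc2 (-0.10), Sucla2 minus Suclg2 (0.05) and Idh1 minus Idh2 (-0.06) had adjusted exact permutation p of 0.65, 0.73 and 0.83.

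Most members were already lower at 1 week. Against the controls, 26 of 30 members fell in the 2 muscles at 1 week, with a median of -0.63, where 28.7% of all genes were called lower. Those that did not pass were Pdp2 (0.07), Pc (-0.18), Mdh1 (-0.15, limma adjusted p = 0.056) and Slc25a12 (-0.18, limma adjusted p = 0.052). At 2 weeks 27 fell, with a median of -0.67, where 37.6% of all genes were called lower, and Pdp2, Pc and Mdh1 did not pass. Slc25a13 was -2.04 at 1 week and -1.66 at 2 weeks, Pdhx -1.61 and -1.71, and Pdk2 -0.85 and -1.33. Both time points share the controls, and the change from 1 to 2 weeks was not tested. With 1 muscle each, 3 and 4 weeks were not tested by themselves.

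In long-term muscle no member differed detectably from control. In limma 0 of 30 members passed in either direction, as did 0% of all genes lower and 0% higher. At an unadjusted p under 0.05, limma called 0 members and 217 of all genes (1.96%), and the lowest unadjusted p of a member was 0.22. The median change was 0.01, with a range of -0.22 to 0.23. Every member's 95% interval included 0, and the widest ends over all members were -0.72 (Pc) and 0.66 (Pdk1). Intervals of other members were narrower, such as -0.30 to 0.31 for Idh3g and -0.33 to 0.26 for Got2. The members' medians were -0.06 and -0.09 at 6 weeks, -0.01 at 16 weeks and 0.16 at 22 weeks.

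Pdk1 had the largest change among the regulators, 0.23 (SE 0.20): its long-term signals were 1306, 1249, 1337 and 1526 and its controls 1038, 910.5, 1136 and 1520. The highest control lay within the long-term range. Pdhx had -0.18 (SE 0.21), with 1183, 1237, 1105 and 1916 in long-term muscle, where the 22-week muscle was above every control and the others near the lowest. Pc had -0.15 (SE 0.27), with 82.95, 105.4, 119.1 and 92.74.

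In the other roles the largest changes were as small. Slc25a12 had 0.14 (SE 0.21), with 1312, 1458, 1612 and 1762 against 1517, 1425, 1174 and 1353 in the controls. Suclg2 had -0.11 (SE 0.17), with 1348, 1155, 1540 and 1635 against 1548, 1409, 1587 and 1460. Mpc2 had 0.11 (SE 0.20), with 4116, 3877, 3445 and 5031 against 4366, 3377, 3361 and 3837. In all 3 genes the groups overlapped. Idh1 had -0.04 (SE 0.23), with 1333, 1193, 1301 and 2312 against 1948, 1546, 1381 and 1210, and the 22-week muscle stood alone at the top. The adjusted p of each, from limma, was 1.

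Of the macrophage and fibroblast markers 0 passed against control in the long-term group, with sums of 694.4 to 2281 and of 5452 to 17320. The members' median differed from that of the muscle fibre genes by -0.17 to -0.04 on these arrays.

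At 6 weeks alone, 0 of 30 members passed, as did 0% of all genes lower and 0% higher, and the median was -0.08. At an unadjusted p under 0.05, limma called 1 member, Pdk2 (-0.32, unadjusted p = 0.044), and 485 of all genes (4.38%). Within rats, the tenotomized muscle minus the opposite muscle gave a median of -0.11 in rat 62, where 21 of 30 members were below 0, and of 0.03 in rat 61, where 12 were. In rat 62 the differences ran from -0.54 for Idh1 to 0.44 for Pdk1, and in rat 61 from -0.23 to 0.28. Of the members, 6 were below 0 and 3 above 0 in both rats, and 2 rats allow no test.

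Set directly against short-term muscle, long-term muscle had higher levels of 29 of 30 members, with a median of 0.69 and a range of 0.05 to 1.60. Over all genes, 42.4% were called higher and 12.1% lower. On the scaled signal, every long-term muscle lay above every short-term muscle in 27 members, against 29.8% of all genes. Of these 27, Mdh1, Idh2 and Nnt overlapped relative to the median gene of each array. Under each of 5 scalings, 25 members were called. Idh1, Idh2, Mdh1 and Pdp2 had intervals that included 0 relative to the median gene.

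These differences rest on the same short-term arrays as the comparison with control. Slc25a13 gave 346.7, 312.4, 345.7 and 511.6 in long-term muscle, none of which came near the short-term maximum of 149.5. The difference was 1.60 (SE 0.24, limma adjusted p = 2.3e-05). Pdhx differed by 1.34 (SE 0.19, limma adjusted p = 1.4e-05). Pdk2 gave 1861, 1954, 2882 and 2024, a difference of 1.01 (SE 0.18, limma adjusted p = 3.1e-05) that was 0.41 (adjusted p = 0.17) as the mean of its probe sets. Suclg1, with 2730, 2622, 2950 and 3657, differed by 1.00 (SE 0.15, limma adjusted p = 1.4e-05).

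Mpc1 and Nnt gave smaller values. Mpc1, with 6042, 5503, 5698 and 7841, differed by 0.85 (SE 0.15, limma adjusted p = 2.7e-05), and Nnt, with 6575, 5730, 6664 and 9276, by 0.44 (SE 0.16, limma adjusted p = 0.00056). Both sets of signals lay above all short-term muscles. Pc was the member that did not pass (0.05, SE 0.25, limma adjusted p = 0.16; 0.23 and 0.034 without short-term replicate 3).

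Pdp2 differed by 0.21 (limma adjusted p = 0.043). This call was lost without any of 8 single arrays, namely short-term replicates 1, 4, 5 and 6, long-term replicates 1, 2 and 3 and control replicate 1, with adjusted p of 0.051 to 0.13. The value was 0.09 without short-term replicate 5, 0.09 and 0.10 without long-term replicates 1 and 2, and 0.43 without long-term replicate 4. Idh1 differed by 0.30 (limma adjusted p = 0.013) and by 0.15 without long-term replicate 4, the 22-week muscle (0.065).

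From a list of 48 other genes of pyruvate, lactate, succinate, malate and citrate metabolism, 41 were tested. In short-term muscle 25 fell, 4 rose and 12 did not pass, with a median of -0.42, where 39.6% of all genes were called lower and 12.3% higher. Under trimmed mean scaling 16 were lower.

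Among the enzymes that adjoin the cycle, Sdha and Sdhb, subunits of succinate dehydrogenase, fell by 0.79 and 0.50 on the log2 scale. Sdha signals were 1836 to 3149 in short-term muscle and 5016 to 5851 in controls. Me1, the cytosolic malic enzyme, fell by 0.67 (limma adjusted p = 0.0012). Me3, a mitochondrial malic enzyme, had the largest fall (-1.78, SE 0.19, limma adjusted p = 3.2e-06), with 90.23 to 201 against 556 to 632.9, and no short-term muscle came near a control. Pdk4, another isoform of the kinase, known for its induction by fasting, changed by -0.87 (SE 0.27, limma adjusted p = 0.0013), from 3640 to 4408 in controls to 979.5 to 3357.

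The genes that rose were Pck2, Pdk3, Slc25a1 and Adss2. Pdk3, a further kinase of pyruvate dehydrogenase, gave 38.76, 17.99, 30.29 and 32.79 in the controls and 47.01 to 211.8 in short-term muscle, a change of 2.31 (SE 0.36, limma adjusted p = 0.00033) with no overlap. Pck2, the mitochondrial form of phosphoenolpyruvate carboxykinase, had the largest rise on the fitted scale (2.74, SE 0.56, limma adjusted p = 0.0021), but 2 of its 4 controls lay at the floor of 9.69, so this value depends on the floor. Its short-term signals ran from 18.16 to 184.6 and its other controls were 16.69 and 29.22, with an overlap between the groups. Slc25a1, the citrate carrier, and Adss2, an adenylosuccinate synthase, changed by 1.69 and 1.29 (limma adjusted p 0.0011 and 0.006).

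Lactate transport and oxidation genes fell as well, of which 4 are named here after their values were seen. Slc16a7 and Slc16a1, monocarboxylate transporters that carry lactate and pyruvate, changed by -1.72 and -1.55 (limma adjusted p 2.9e-05 and 2.8e-05). Ldhd, the D-lactate dehydrogenase, changed by -1.42 (limma adjusted p = 5.5e-06), and in all 3 genes every short-term muscle lay below every control. Slc16a3, another monocarboxylate transporter, changed by -0.67 (limma adjusted p = 0.027), with overlap and an interval that included 0.

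Ldhb, the heart-type lactate dehydrogenase, changed by -0.27 (limma adjusted p = 0.0017; 0.092 under trimmed mean scaling), with an interval that included 0. Ldha, the muscle-type form, had 0.68 and did not pass (limma adjusted p = 0.19), but was called higher under 75th percentile, quantile and trimmed mean scaling (0.037, 0.0064 and 0.015). Gpd2, the mitochondrial glycerol phosphate dehydrogenase, changed by -0.59 (limma adjusted p = 0.002; 0.056 under trimmed mean scaling).

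Gpd1, its cytosolic partner, changed by -0.58 (limma adjusted p = 0.031). It no longer passed when short-term replicate 1, 2 or 6 or control replicate 1 or 2 was left out (adjusted p 0.058 to 0.11). Nor did it pass under 75th percentile, quantile or trimmed mean scaling or with no filter (adjusted p 0.074 to 0.24). The mean of its probe sets had the other sign (0.18, adjusted p = 0.81). Gpt2, the mitochondrial alanine aminotransferase, had -0.57 (limma adjusted p = 0.18), with 1 short-term muscle at the floor. As the mean of its probe sets Gpt2 was called lower (-0.98, limma adjusted p = 0.027).

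**Figure D4:**
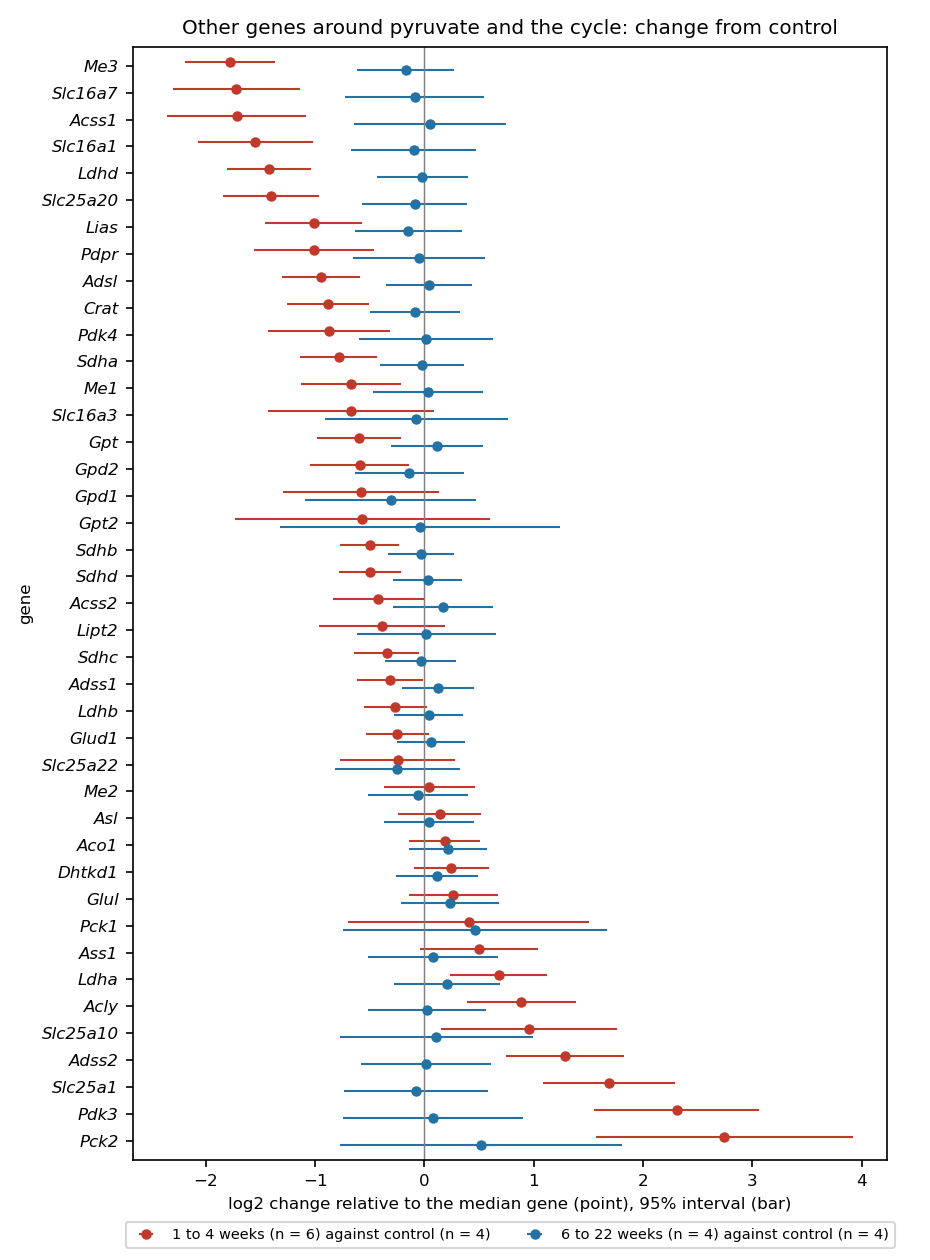
Change of the 41 other genes around pyruvate and the cycle against the 4 controls, on the log2 scale relative to the median gene, with 95% intervals; red is 1 to 4 weeks (n = 6) and blue 6 to 22 weeks (n = 4). Red points run from -1.78 for Me3 to 2.74 for Pck2, while every blue bar crosses 0.

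In long-term muscle 0 of these 41 genes passed against control (0 at an unadjusted p under 0.05 in limma), with a median of 0.02. The extremes were Pck2 at 0.52 (SE 0.61) and Gpd1 at -0.31 (SE 0.37), both with a limma adjusted p of 1. Against short-term muscle 25 were higher and 4 lower, with a median of 0.43, where 42.4% of all genes were called higher and 12.1% lower. Acss1, the mitochondrial acetyl-CoA synthetase, gave 1901, 1303, 2407 and 2597 in long-term muscle and 213.1 to 767.4 in short-term muscle, a difference of 1.76 (SE 0.30, limma adjusted p = 5.2e-05). Pdk3 differed most in the other direction, by -2.24 (SE 0.36, limma adjusted p = 5e-04), with 25.87 to 36.02 in long-term muscle. Pck2 differed by -2.23 (limma adjusted p = 0.01), a call that was lost without long-term replicate 4 (-1.79, adjusted p = 0.052).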

How the data were processed

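RNA of 14 whole soleus muscles was hybridised to 1 array each. The authors deposited linear probe set signals as an intensity, computed with MAS5 per the submitters' processing notes. The version, the scaling target and the detection calls are not given in the sources used here. The deposited intensity values ran from 0.0183 to 12542, and the array medians from 29.8 to 49.3, so arrays were not on 1 scale. Array number, not depth, limits the precision.

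Signals were taken to log2 and shifted to a common median, since the medians differed by more than 0.2. Values under the pooled 25th percentile (9.69) were raised to it. Of 31099 probe sets, 57 manufacturer's controls were left out; 20826 carried 1 symbol, 436 several and 9780 none. A gene was tested if above the pooled 40th percentile (22.0) on at least 4 arrays. The limma package (3.58.1, R 4.3.3) was run in 1 fit of all arrays with a mean per group and in 1 with a mean per time point, with an intensity trend in the variance. Single values were compared by exact permutation of arrays. The limma test was checked on simulated data.

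Every member is named. Given in full are, per role and group comparison, the member with the largest absolute change, and members that did not pass in short-term muscle. The members, lists and tests were chosen with earlier results of these data known. Within-group deviations correlated at 0.41 in rat 61 and 0.21 in rat 62 between the control and 6-week muscle, which the labels place in the same rat, and between -0.31 and 0.29 in other pairs of a control and a long-term muscle. Alternatives covered scaling, floor, filter, probe set choice, variance model, the rat as a random block and each array left out. No array columns were left without a sample. Array pairs correlated at 0.85 to 0.94, and none were identical.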

Additional observations from a re-analysis of the deposited data

Results flagged for a closer look

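The 22-week muscle (long-term replicate 4) stood apart from the rest of its group for 2 members. Its Sucla2 signal was 4989, against 3382 in the nearest long-term muscle, and its Idh1 signal was 2312, against 1333. Of 90 groups of values tested for such a gap, these 2 were found, and chance gives about 1 in 20.

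The change from control differed between short-term and long-term muscle, by the limma contrast of the groups, for 29 of 30 members. Since both changes share the controls, this contrast is long-term minus short-term muscle. On the log2 scale relative to the median gene, long-term minus short-term was 0.845 for Mpc1 and 0.843 for Mpc2, the carrier subunits. In the pyruvate dehydrogenase complex it was 0.639 for Pdha1, 0.77 for Pdhb, 1.342 for Pdhx and 0.864 for Dld. Among the regulators it was 0.618 for Pdk1, 1.011 for Pdk2, 0.725 for Pdp1 and 0.21 for Pdp2. In the first steps of the cycle it was 0.634 for Cs, 0.803 for Idh3a, 0.689 for Idh3b, 0.948 for Idh3g, 0.505 for Ogdh and 0.68 for Dlst. In the later steps it was 0.724 for Sucla2, 0.995 for Suclg1, 0.629 for Suclg2 and 0.685 for Mdh2. In the shuttle it was 0.296 for Mdh1, 0.948 for Got1, 0.488 for Got2, 0.723 for Slc25a11, 0.654 for Slc25a12 and 1.598 for Slc25a13. Among the NADPH genes it was 0.302 for Idh1, 0.288 for Idh2 and 0.436 for Nnt.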

How the results depend on the processing

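Over 25 alternatives, 22 of 30 members kept their call against control in short-term muscle, 30 in long-term muscle and 24 between long-term and short-term muscle. The members called lower in short-term muscle numbered 24 to 29, and 27 to 29 when single arrays were left out. Those called higher in long-term than in short-term muscle numbered 25 to 30. At 1 week 18 to 28 fell, and at 2 weeks 21 to 28. With the rat as a random replicate block (consensus correlation 0.109) the counts were 28, 0 and 29, and no member's call changed. Quantile normalization gave median changes of -0.489 in short-term muscle and 0.438 between long-term and short-term muscle, and no filter gave 0.841 for the latter. Trimmed mean scaling left 16 of the other pathway genes lower in short-term muscle, against 25. As the mean of all probe sets, Pdk2 changed by 0.161 and Gpd1 by 0.183 in short-term muscle, and Mdh1 minus Mdh2 was -0.006, each with the sign turned; the cause was not tested. The pair comparisons and their alternatives were chosen after seeing the data. Slc25a12 lost its call under quantile normalization. Pck2 and Gpt2 had signals at the floor, where order is lost, and 1 muscle each at 3, 4, 16 and 22 weeks gives no test of those times.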
